A study of Homo sapiens with 2 samples.

Results

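The genes of serine synthesis and folate-linked one-carbon metabolism were followed through the peak lists of a CUT&Tag experiment for EWS-FLI binding. They were PHGDH, PSAT1, PSPH, SHMT1, SHMT2, MTHFD1, MTHFD1L, MTHFD2, SLC1A4 and SLC1A5, 10 of the 20037 protein-coding genes in the RefSeq table on GRCh38.p14. For each gene, every interval called inside it or within 100 kb of either end was taken from both lists. An interval was a site of the gene's own promoter when its summit, the base with the most reads, lay within 1 kb of a start of that gene. A summit within 1 kb of a start of a different gene only was a neighbour's site. PSPH and SHMT2 had no start in the promoter table used here, so either end of the gene served for them. This gave 30 intervals in cells given siNEG and 9 in cells given siEWS-FLI.

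The cells were TC32, an established Ewing sarcoma line. Its driver, EWS-FLI, joins part of EWSR1 to the DNA-binding part of the ETS factor FLI1. CUT&Tag marks the places where an antibody against a chromatin protein sits by tagging the DNA there with a transposase. One group was TC32 given siEWS-FLI and the other TC32 given siNEG, a name the labels do not spell out. Each had 1 library, no antibody is named in the labels, and both libraries were amplified by 14 and then 20 cycles of PCR. With 1 library a group there was no test between groups, and a difference below compares these 2 libraries. The level of the fusion was not measured by these files, so the effect of siEWS-FLI on it was not checked here.

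Cells make serine from a glycolytic intermediate in a short pathway of 3 enzymes: PHGDH oxidises it, PSAT1 adds the amino group and PSPH removes the phosphate. The hydroxymethyltransferases SHMT1, in the cytosol, and SHMT2, in mitochondria, convert serine to glycine and pass its carbon to tetrahydrofolate. MTHFD2 and MTHFD1L carry that carbon on to formate in mitochondria, and MTHFD1 uses the folate forms in the cytosol for purine, thymidylate and methionine synthesis. SLC1A4 and SLC1A5 are plasma membrane exchangers of neutral amino acids, serine among them and, for SLC1A5, glutamine. Dividing tumour cells draw on this pathway for nucleotides and methyl groups.

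ETS factors recognise DNA with the core GGAA, and EWS-FLI also binds tandem GGAA repeats, so the promoter sequences were read for these letters. RefSeq promoter windows on GRCh38.p14, each from 250 bases before to 50 bases after a start, were matched for 8 of the 10 genes and comprised 14 windows. The 5 below are shown because the results turn on them: MTHFD1 and MTHFD2 had a site in both libraries, PSAT1 and the innermost start of SLC1A5 had one with siNEG only, and PHGDH had none. Letters run 5′ to 3′ along the gene's strand, the start is base 251, and capitals mark GGAA on either strand (GGAA or TTCC).
MTHFD1, chr14:64388103-64388402, plus strand: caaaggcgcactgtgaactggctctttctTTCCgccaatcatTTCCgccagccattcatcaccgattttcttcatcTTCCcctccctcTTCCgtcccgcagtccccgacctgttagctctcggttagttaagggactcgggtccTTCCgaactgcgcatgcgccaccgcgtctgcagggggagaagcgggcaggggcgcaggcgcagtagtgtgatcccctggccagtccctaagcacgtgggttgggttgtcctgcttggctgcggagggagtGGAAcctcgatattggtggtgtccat
MTHFD2, chr2:74198365-74198664, plus strand: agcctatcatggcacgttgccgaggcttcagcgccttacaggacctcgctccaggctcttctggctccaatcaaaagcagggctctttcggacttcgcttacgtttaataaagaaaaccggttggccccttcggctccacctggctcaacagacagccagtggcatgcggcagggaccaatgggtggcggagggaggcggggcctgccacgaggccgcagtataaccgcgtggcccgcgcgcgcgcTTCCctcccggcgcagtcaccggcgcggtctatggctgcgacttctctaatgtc
PSAT1, chr9:78296875-78297174, plus strand: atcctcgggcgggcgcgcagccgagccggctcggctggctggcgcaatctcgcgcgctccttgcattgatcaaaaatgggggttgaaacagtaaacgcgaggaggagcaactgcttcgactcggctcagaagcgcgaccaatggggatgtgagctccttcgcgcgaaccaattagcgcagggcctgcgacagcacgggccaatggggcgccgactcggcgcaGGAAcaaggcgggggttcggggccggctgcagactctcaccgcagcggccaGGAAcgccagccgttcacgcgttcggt
SLC1A5, chr19:46784765-46785064, minus strand: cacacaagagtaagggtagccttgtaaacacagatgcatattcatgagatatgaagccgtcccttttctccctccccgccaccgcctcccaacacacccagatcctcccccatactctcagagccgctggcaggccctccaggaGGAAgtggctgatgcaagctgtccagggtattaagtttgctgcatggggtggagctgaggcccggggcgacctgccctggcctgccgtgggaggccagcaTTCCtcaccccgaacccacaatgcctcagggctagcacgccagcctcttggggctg
PHGDH, chr1:119711684-119711983, plus strand: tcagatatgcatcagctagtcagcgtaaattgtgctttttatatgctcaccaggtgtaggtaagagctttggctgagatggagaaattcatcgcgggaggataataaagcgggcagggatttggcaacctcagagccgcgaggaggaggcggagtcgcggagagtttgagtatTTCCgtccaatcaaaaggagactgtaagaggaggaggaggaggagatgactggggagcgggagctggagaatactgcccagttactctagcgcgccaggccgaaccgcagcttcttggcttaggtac

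GGAA was present in all 14 windows of these genes, with a median of 2 matches and a range of 1 to 6. The highest count was that of MTHFD1. Of 35116 RefSeq windows of the same length 95.5% held GGAA on either strand, with a median of 3 matches, so its presence does not set these genes apart. The tandem GGAAGGAA was in 0 of the 14 windows, against 3.67% of all windows. The longer ETS letters CCGGAAGT, which contain GGAA, were also in 0 of the 14. They were in 4.14% of all windows and in 18.3% of the 4917 windows that contained a siNEG summit. Only some of the 14 windows contained a siNEG summit, so the 18.3% is not a like value for the 14. All motifs were searched on both strands. At shares of 3.67% and 4.14%, 0 in 14 windows is an unremarkable count and does not set these genes apart. The windows of the clustered MTHFD1L starts also overlap one another. A match is a description of the letters, and its absence says only that these letters are not in this window.

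In base composition the 14 windows ranged from 40.7 to 78.7% GC. The GC content of the MTHFD1 window was 59.7%, near the median of 58.7% over all windows, and that of MTHFD2 was 62.7%. Both lay below the median of 66% in the 4917 windows with a siNEG summit, whose median CpG count was 28. The window at the second SLC1A4 start had 78.7% GC and 43 CpG dinucleotides, more than 95% of all windows by CpG count. The 3 clustered MTHFD1L starts had 75.7 to 76.7% GC. The PHGDH window, without a summit in either library, had 52.7% GC and 15 CpG, close to the median of 14.

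Most of these genes carried a weak promoter site with siNEG. Of the 10 genes 8 had an own-promoter siNEG interval, where 34.7% of all protein-coding genes had one. The genes with more than 1 start, or with either end used, had more chances to meet this rule: all 5 of them had such a site, and 3 of the 5 genes with a single start did. Over all genes the share was 35.0% for a single start and 34.1% for more. The pileup, or count of extended reads that cover the summit, had a median of 8.5 at the 8 genes. Over the 6943 genes with an own-start siNEG interval the median was 12, with quartiles of 8 and 25. The sites lay close to the starts, at a median of 119 bases against 138 over those 6943 genes. With siEWS-FLI, 2 of the 10 genes, MTHFD1 and MTHFD2, had an own-promoter interval, where 12.3% of all protein-coding genes had one. They were 2 of the 8 with an own-promoter siNEG interval, and 32.4% of all genes with an own-start siNEG interval also had one with siEWS-FLI.

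**Figure D1:**
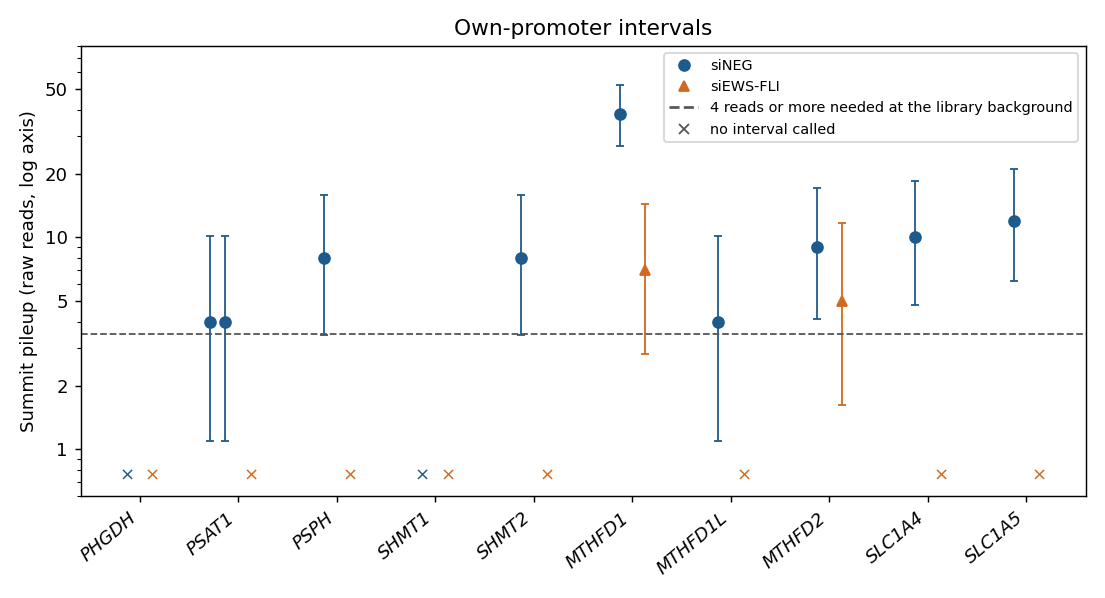
Summit pileup in raw reads (log axis) of each own-promoter interval of the 10 genes, with siNEG (circles) and siEWS-FLI (triangles). Bars are exact 95% Poisson intervals, crosses mark genes with no own-promoter interval, and the dashed line separates the 3 reads that stay uncalled with siEWS-FLI at its library background from the 4 that are called. MTHFD1, at 38 reads, stands above the other genes, which lie between 4 and 12.

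Of the 3 serine synthesis genes, PSAT1 and PSPH had own-promoter siNEG sites, of 4 and 8 reads, and none was called with siEWS-FLI. PHGDH, the first enzyme of the pathway (chromosome 1, 119711934 to 119744215), had no summit within 1 kb of its start in either library. Its nearest siNEG interval lay inside the gene, 4.21 kb from the start (119716042 to 119716241), with 4 reads (exact 95% Poisson interval 1.09 to 10.2). By −log10 q, the deposited measure of how far a summit stands above its background, that interval was at the 1.1th percentile of the siNEG list, and no interval lay within 100 kb of PHGDH with siEWS-FLI. The other siNEG interval of the window had 13 reads (6.92 to 22.2) and lay 63.6 kb away, 98 bases from the start of ZNF697, a zinc finger gene, and 48 bases from an end of LOC124904389.

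PSAT1, the aminotransferase of the pathway (chromosome 9, 78297125 to 78330093), had 2 own-promoter siNEG intervals, 82 and 765 bases upstream of the start. Each had 4 reads (1.09 to 10.2) and a −log10 q of 1.37, at the 0.236th percentile of the list. They are among the faintest intervals that the caller admitted. The window also held a siNEG interval of 4 reads 85 bases from an end of CEP78 and one of 5 reads between genes, 70.8 kb from the start. No siEWS-FLI interval was called in it.

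PSPH, the phosphatase that completes the pathway (chromosome 7, 56011064 to 56051444), had 8 siNEG reads (3.45 to 15.8) at a site 192 bases from its upper end (56051509 to 56051708). The same summit lay 129 bases from an end of CCT6A, which encodes a chaperonin subunit, so the site belongs to both genes by position and cannot be given to either one. The strongest interval of the window, with 26 reads (17.0 to 38.1), lay at CHCHD2, which encodes a mitochondrial protein, 124 bases from its start and 55.2 kb from PSPH. Neither was called with siEWS-FLI.

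The cytosolic and mitochondrial serine hydroxymethyltransferase genes differed in whether a promoter site was called. SHMT2, the mitochondrial form (chromosome 12, 57229711 to 57234935), had 8 siNEG reads (3.45 to 15.8) at a site 40 bases inside its lower end (57229642 to 57229851). SHMT1, the cytosolic form (chromosome 17, 18327873 to 18363550), had no summit inside the gene or at its start. Its nearest siNEG summit lay 12.7 kb beyond the far end, between the starts of TOP3A, a topoisomerase gene, and SMCR8, an autophagy gene. That site (18314863 to 18315350) had 22 siNEG reads (13.8 to 33.3) against 6 siEWS-FLI reads (2.2 to 13.1), a ratio of 0.273 (0.0905 to 0.694). It was the only interval in either SHMT window that was called with siEWS-FLI. SHMT1 and SHMT2 thus differed by 8 reads against an uncalled position, where 3 reads could lie unlisted at the siNEG library background.

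Among the folate enzymes, MTHFD1 had the strongest promoter site of the 10 genes and MTHFD2 a weak one, and both were called in both libraries. At MTHFD1, the cytosolic trifunctional enzyme (chromosome 14, 64388353 to 64460025), the interval 64387799 to 64388386 had 38 reads (26.9 to 52.2) with siNEG. With siEWS-FLI the interval 64388055 to 64388254 had 7 (2.81 to 14.4). The siEWS-FLI interval lay wholly inside the siNEG one, and the Poisson intervals of the pileups did not overlap. The ratio was 0.184 (exact interval 0.0694 to 0.418, counting error only). In the sequence above, the siNEG summit was base 54, 11 bases from the nearest GGAA match, which begins at base 43, and the siEWS-FLI summit was base 108. This window held 6 matches. The distance to the nearest match was 27 bases at MTHFD1L, 54 at PSAT1 and 184 at SLC1A4, and is given below for MTHFD2 and SLC1A5. It is not given over all windows, so none of these values can be called short. Among the 6943 genes with an own-start siNEG interval, the pileup at MTHFD1 ranked at the 84.3th percentile.

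At MTHFD2, a mitochondrial dehydrogenase and cyclohydrolase (chromosome 2, 74198615 to 74217565), the siNEG interval 74198365 to 74198662 had 9 reads (4.12 to 17.1). The siEWS-FLI interval 74198638 to 74198837 had 5 (1.62 to 11.7). The pileups overlapped within counting error, with a ratio of 0.556 (0.146 to 1.85). The intervals met over 25 bases only and their summits were 263 bases apart, the siNEG summit 151 bases upstream of the start and the siEWS-FLI summit 112 bases downstream. Under a reciprocal overlap of 50% neither this pair nor that at MTHFD1, which met over 34% of the siNEG interval, counts as shared. In the sequence above, the siNEG summit was base 100, 147 bases from the single GGAA match.

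MTHFD1L, the mitochondrial enzyme that releases formate (chromosome 6, 150865702 to 151101887), is the longest of the 10 genes at 236 kb. It had 4 siNEG reads (1.09 to 10.2) among its clustered starts, 52 bases from the nearest. A stronger siNEG interval lay inside the gene (151045111 to 151045316), with 8 reads (3.45 to 15.8), 38.2 kb from the nearest start. The highest of the window, with 14 reads (7.65 to 23.5), lay inside LOC124901432, 39.9 kb beyond the gene. With siEWS-FLI there was a single interval of 4 reads (1.09 to 10.2), inside PLEKHG1 and 53.7 kb from the nearest start, at a place where no siNEG interval was called.

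Both amino acid exchanger genes have several RefSeq starts, and each had a siNEG promoter site. SLC1A5 (chromosome 19, 46774883 to 46788594) had 12 reads (6.2 to 21.0) at 46784769 to 46785030. This summit was 87 bases upstream of the innermost of its 3 RefSeq starts, 2.39 kb from the middle one and 3.69 kb from the outermost one. No interval lay within 1 kb of the outer starts. In the sequence above, the summit was base 164, 19 bases from the nearest GGAA match, which begins at base 145. SLC1A4 (chromosome 2, 64988479 to 65023865) had 10 reads (4.8 to 18.4) at 64989072 to 64989339. That summit was 224 bases upstream of the second start and 696 bases downstream of the first. Neither site was called with siEWS-FLI.

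**Figure D2:**
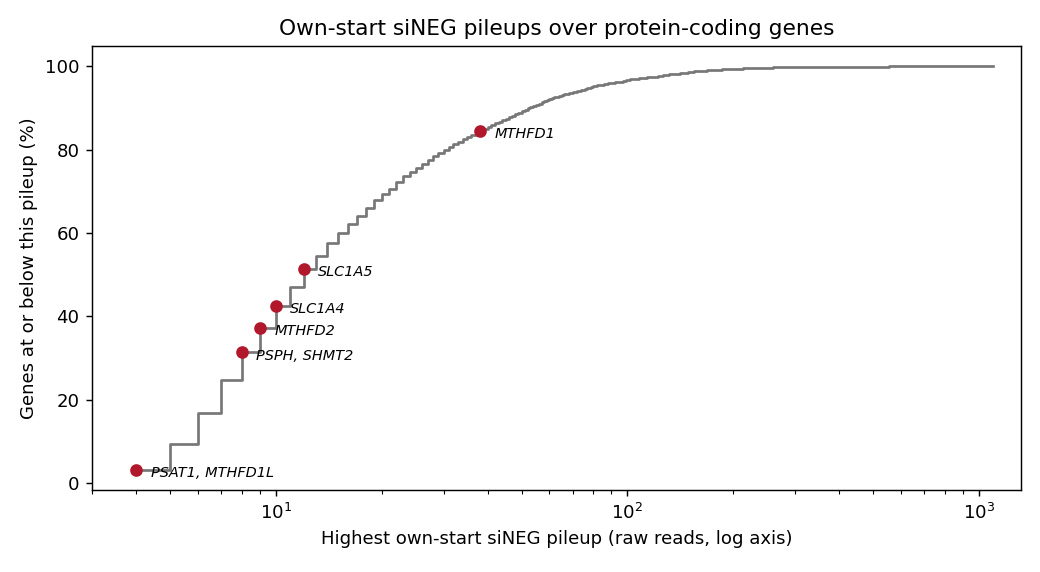
Cumulative share of protein-coding genes with an own-start siNEG interval (vertical axis, %) by the highest pileup at their starts (horizontal axis, raw reads, log axis), with the 8 genes of the pathway that had one as red points. PSAT1 and MTHFD1L lie at the bottom with 4 reads, SLC1A5 sits at the median of 12, and MTHFD1, at 38, is the only one above the upper quartile of 25.

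Depth limits what can be read from the sites that were not called with siEWS-FLI. The background over the whole library stood at 0.239 reads per base for siEWS-FLI and at 0.348 for siNEG, a ratio of 0.687. Leaving out the reads of a mitochondrial window, under an assumed genome size, the ratio was 0.562. Scaled by these ratios, the 4 siNEG reads of PSAT1 or MTHFD1L would be 2.75 or 2.25 reads. With siEWS-FLI, up to 3 reads would stay uncalled at its library background and up to 4 at the siNEG local background of PSAT1. A difference was therefore not detectable at this depth for these 2 genes. The 8 reads of PSPH and of SHMT2 scale to 5.49 or 4.49, where up to 4 would stay uncalled at the siNEG local background. The 10 of SLC1A4 scale to 6.87 or 5.62 (up to 5 uncalled), and the 12 of SLC1A5 to 8.24 or 6.74 (up to 6 uncalled). These 4 scaled values exceed those limits by less than their counting error, and the limit at the siEWS-FLI library background, 3 reads, lies lower. Those limits may stand too high, since the local background was lower with siEWS-FLI where both libraries had a call. It was 1.42 with siNEG and 0.28 with siEWS-FLI at MTHFD1, and 0.7 and 0.239 at MTHFD2. Whether the 4 values exceed the limit of 3 reads beyond counting error was not tested. At MTHFD1 the 38 reads scale to 26.1 or 21.3, above the upper bound of 14.4 on its 7 siEWS-FLI reads. That difference between the 2 libraries was larger than counting error at either ratio. It has no replicate check, and the part of the assay's efficiency in each library was not tested. At the other shared sites of the windows the unscaled ratios were 0.0916 (ARHGAP35), 0.22 (AP2S1), 0.273 (TOP3A and SMCR8) and 0.556 (MTHFD2). A ratio as low as the 0.184 of MTHFD1 was thus not particular to it. In the PSPH window, the 26 siNEG reads at the neighbour CHCHD2 scale to 17.9 or 14.6. Up to 6 would stay uncalled at the siNEG local background there, and both scaled values lie above that limit. Why no siEWS-FLI interval was called at CHCHD2 was not tested.

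The windows took in sites of neighbours as well, among them the 2 strongest, while the third in strength was MTHFD1's own. All 10 genes had a siNEG interval within 100 kb, where 82.9% of protein-coding genes had one, and 6 had a siEWS-FLI interval, where 59.3% had one. The number of siNEG intervals in a window had a mean of 3 for these genes and 3.06 over all genes, and the number of siEWS-FLI intervals a mean of 0.9 and 1.19. Of the 30 siNEG intervals, 9 were at the genes' own promoters, the site paired with CCT6A among them, with 4 to 38 reads. Neighbours' starts or ends held 10, with 4 to 131 reads and a median of 12.5. The remaining 11 had 4 to 14 reads: 2 lay inside the member gene, 5 inside another gene and 4 between genes.

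**Figure D3:**
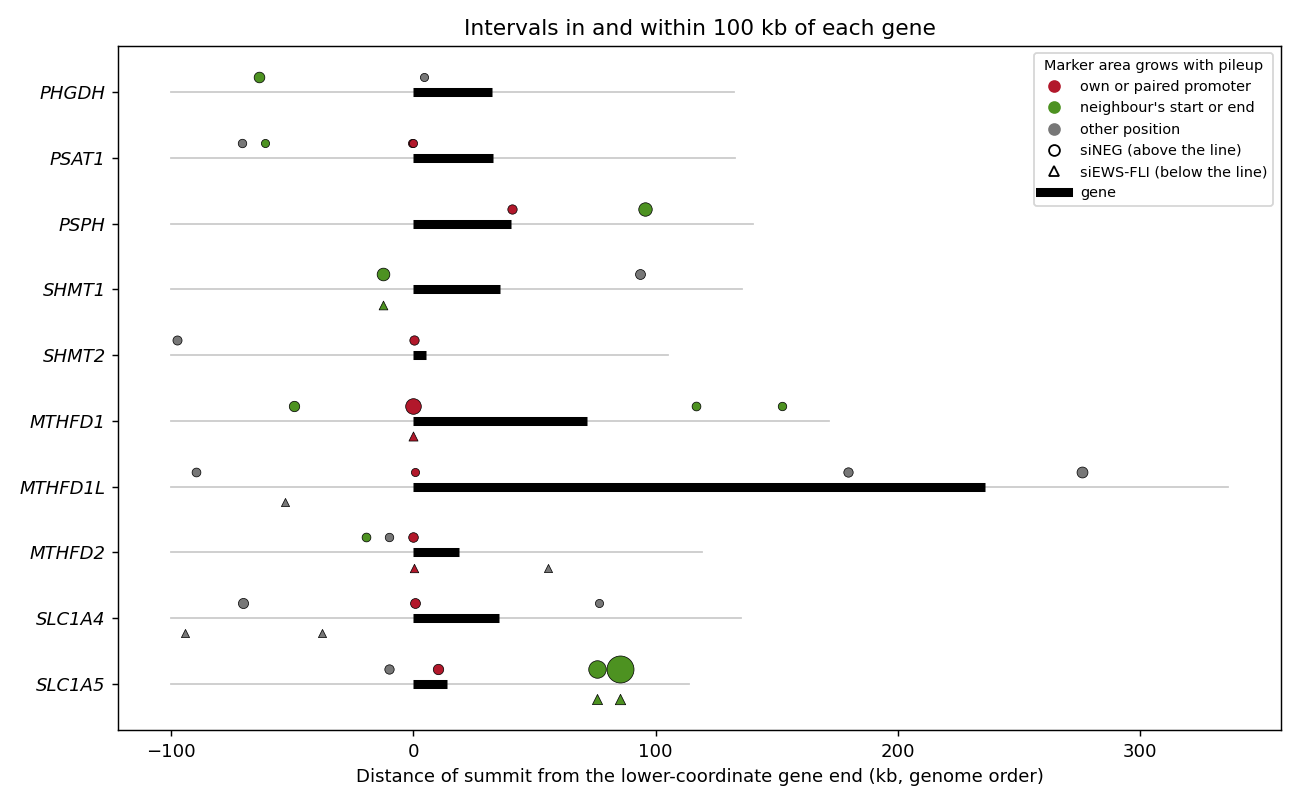
Summits called in and within 100 kb of each gene, by distance in kb from the gene's lower-coordinate end in genome order, with siNEG above and siEWS-FLI below each line and marker area growing with pileup. Black bars are the genes, red marks own or paired promoter sites, green marks sites at a neighbour's start or end, and grey marks other positions. The largest marker, of 131 reads, lies in the SLC1A5 window at a neighbour, ARHGAP35.

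The SLC1A5 window held the 2 strongest sites, and both were called in each library. One (46859889 to 46860494) lay 71.5 kb from the nearest SLC1A5 start and 918 bases from an end of ARHGAP35, which encodes a GTPase-activating protein. It had 131 siNEG reads (110 to 155) against 12 siEWS-FLI reads (6.2 to 21.0), a ratio of 0.0916 (0.0461 to 0.165). The other (46850353 to 46851147) lay 542 bases from the start of AP2S1, a subunit of the clathrin adaptor AP2. It had 50 reads (37.1 to 65.9) and 11 (5.49 to 19.7), a ratio of 0.22 (0.103 to 0.428). At both, the Poisson intervals of the pileups did not overlap, and the ratios lay below 0.562. The fourth siNEG interval of that window, of 8 reads (3.45 to 15.8), lay between genes, 9.95 kb from SLC1A5. A count of intervals near SLC1A5 thus describes these neighbours more than SLC1A5, whose own site had 12 reads with siNEG alone.

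Besides these and the TOP3A and SMCR8 site of the SHMT1 window, the siNEG intervals at neighbours had no siEWS-FLI counterpart. In the MTHFD1 window, ESR2, an estrogen receptor gene, had 12 reads (6.2 to 21.0) 240 bases from a start. The zinc finger genes ZBTB1 and ZBTB25 had 6 reads at a site within 1 kb of both, and HSPA2, a heat shock protein gene, had 5 at a site within 1 kb of its start. In the MTHFD2 window, MOB1A, a Hippo pathway gene, had 6 reads 5 bases from a start. Away from starts, the SLC1A4 window held 11 reads (5.49 to 19.7) inside LINC02245 and 4 inside CEP68. The SHMT1 window held 10 reads (4.8 to 18.4) between genes, 58.0 kb from the start, and the SHMT2 window 7 reads inside LRP1, 97.4 kb away.

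Of the 30 siNEG intervals 5 were shared, that is, overlapped a siEWS-FLI interval by at least 1 base (16.7%, Wilson 95% interval 7.34 to 33.6), where 15.6% of all siNEG intervals were. By position, 2 of 9 own-promoter intervals were shared (22.2%, 6.32 to 54.7) and 3 of 10 at neighbours (30.0%, 10.8 to 60.3). For comparison, 26.9% of all siNEG intervals at a start were. Away from starts 0 of 11 were shared, which allows a share of up to 27.3% (3 counts of 11; the Wilson upper limit is 25.9%), where 7.54% of all such intervals were. Strength was uneven between these classes. Of the 13 intervals at own or neighbours' starts with 4 to 12 reads, 1 was shared, that of MTHFD2, where 8.33% of such intervals were over the genome. Of the 3 with 20 to 49 reads 2 were shared, at MTHFD1 and at TOP3A and SMCR8 but not at CHCHD2, where 50.7% were. Both with 50 or more reads were shared, where 86.8% were. The Wilson intervals of these shares, 1.37 to 33.3%, 20.8 to 93.9% and 34.2 to 100%, hold the values over all intervals. With so few intervals they are too wide to place these genes near those values or away from them. The unshared interval of 13 reads at ZNF697 falls in none of these ranges of reads.

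**Figure D4:**
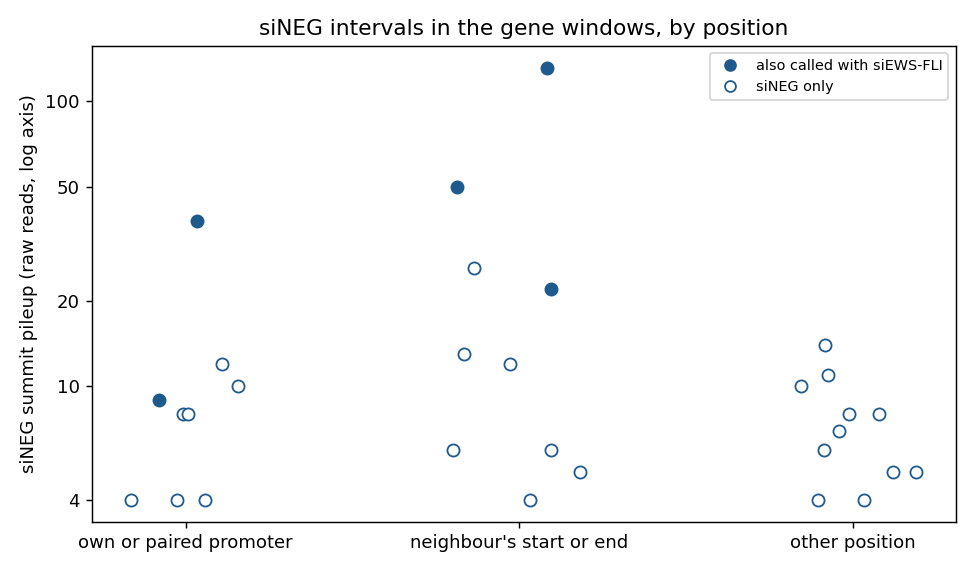
Summit pileup (raw reads, log axis) of the 30 siNEG intervals in the gene windows, in 3 classes of position, with filled circles for intervals also called with siEWS-FLI. Filled circles are at 9 and 38 reads among own promoters and at 22, 50 and 131 among neighbours, and none is among the other positions, which reach 14 reads.

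In the siEWS-FLI list, 5 of the 9 intervals of the windows were shared with siNEG (55.6%, 26.7 to 81.1), where 41.1% of all siEWS-FLI intervals were. The other 4 had 4 reads each (1.09 to 10.2), were 200 bases wide, the narrowest listed, and lay at no start. They were 2 between genes in the SLC1A4 window, 1 in SLC4A5 in the MTHFD2 window and the 1 in PLEKHG1 described above. Of all 9 intervals 5 were at a start, where 35.4% of the siEWS-FLI list was. None of the 4 lay at a promoter of the pathway, so no gene of the 10 had a promoter site with siEWS-FLI only.

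Of 27 further genes of serine and glycine breakdown, the folate cycle, formyl transfer to purines, the methionine cycle and regulation, 15 had an own-start siNEG interval (55.6%, where 34.7% of all protein-coding genes had one), with a median of 13 reads against 12 over all genes with such an interval. Own-start siEWS-FLI intervals were called at 3 (11.1%, where 12.3% of all protein-coding genes had one). MTR, methionine synthase, had 39 siNEG reads (27.7 to 53.3) against 6 siEWS-FLI reads (2.2 to 13.1). SLC25A32, the mitochondrial folate carrier, had 16 (9.15 to 26.0) and 8 (3.45 to 15.8), at a site within 1 kb of DCAF13. At MTR the Poisson intervals did not overlap, and at SLC25A32 they did. These are raw reads that were not scaled for depth, so the overlap does not separate a difference from depth at either gene.

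Some other genes of this wider list had siNEG sites only. ATIC and GART, enzymes of purine synthesis that use formyl-folate, had 22 (13.8 to 33.3) and 16 reads (9.15 to 26.0). NFE2L2, an oxidative stress regulator, had 16 reads (9.15 to 26.0), and ATF4, the amino acid stress factor known to activate serine synthesis genes, had 15 (8.4 to 24.7). By group, an own-start siNEG interval was called at 3 of 7 genes of serine and glycine breakdown, 4 of 11 of the folate cycle, 2 of 2 of formyl transfer, 4 of 5 of the methionine cycle and transsulfuration and 2 of 2 regulators. The first 2 shares, 42.9% and 36.4%, are near the 34.7% of all protein-coding genes, and the other groups hold 5 genes at most. No own-start interval was called at TYMS, which makes thymidylate, or at GLDC of the glycine cleavage system.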

How the data were processed

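CUT&Tag was measured in 1 TC32 library given siNEG and 1 given siEWS-FLI. The submitters' processing notes name MACS2 2.2.9.1, Bowtie2 2.4.5, Trim Galore 0.6.6 and the build hg38 and give them no roles. Whether a control library was used and duplicates were removed is not given in the sources used here. The deposited lists hold per-library intervals with a display score (not used), the fold enrichment at the summit as a linear ratio, and −log10 p and −log10 q as the authors' caller gave them; fold and q are the authors' values and served only within a list. Lines sharing an interval were merged, keeping the highest −log10 q, on chromosomes 1 to 22, X and Y, which left 16284 siNEG and 6370 siEWS-FLI intervals with median pileups of 8 and 5 reads.

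Pileups were solved from fold and −log10 p, taking fold as pileup plus 1 over background plus 1 and p as a Poisson upper tail. A whole pileup was found for 100% of lines within a tolerance of 0.001 in log10 p, growing above 10, and for 100% of 500 simulated summits; where several pileups solved a line, the one whose background was at least the library's own was kept. Depth was read from the library backgrounds, with an assumed mappable genome of 2700000000 bases and reads extended to 200 bases. Intervals are exact Poisson for pileups, exact binomial for their ratios and Wilson for shares, at 95%, and cover counting error only, since PCR copies are not independent molecules. Starts came from the RefSeq promoter table for 15843 of 20037 protein-coding genes and from either gene end for the rest. Starts of lncRNA genes also counted as neighbours. Exons and introns were not told apart.

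The members and lists were chosen with earlier results of these data known. All 10 members were named, with the genes at the strongest siNEG interval or any siEWS-FLI interval of a window. Of the wider pathway, genes with an own-start siEWS-FLI interval and the 4 strongest siNEG genes were named, ties included; some of the genes this names are counted but not reported here by name; ATF4, TYMS, GLDC, DCAF13 and the genes at or around the weaker intervals of the windows (CEP78, ESR2, ZBTB1, ZBTB25, HSPA2, MOB1A, LINC02245, CEP68, LRP1, PLEKHG1, SLC4A5, LOC124901432) were named after their values were seen. Alternatives were stricter q, no 200-base intervals, other promoter distances and windows, and other overlap rules. Computations used Python 3.11.15, numpy 2.4.6, pandas 2.3.3 and scipy 1.17.1, and figures matplotlib 3.10.9.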

Additional observations from a re-analysis of the deposited data

How the results depend on the processing

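Of 27 alternative values, 11 stayed within 1.5 times the reported count and 16 moved beyond it. No paired analysis was possible because each group has 1 library. The 8 genes with an own-promoter siNEG interval became 5 without intervals of exactly 200 bases. They became 6 at −log10 q of at least 2, where PSAT1 and MTHFD1L dropped out, and stayed 6 at 5. The 2 with a siEWS-FLI one became 1 at −log10 q of at least 5 and 0 without 200-base intervals. The 30 siNEG intervals of the windows became 17 at −log10 q of at least 5, 19 within 50 kb and 12 within 10 kb. The 9 siEWS-FLI intervals became 5 and 3 at −log10 q of at least 2 and 5, 2 without 200-base intervals, 5 within 50 kb and 2 within 10 kb. The 5 shared siNEG intervals became 3 at −log10 q of at least 5, 2 without 200-base intervals, 3 within 50 kb, 2 within 10 kb and 1 at a reciprocal overlap of 50%. Each of these alternatives admits fewer intervals or pairs by construction. The shares over all protein-coding genes are given at the main setting only. Whether the 10 genes lost more sites than other genes under stricter settings was therefore not tested. Pileups of 4 to 12 reads limit every own-promoter comparison other than that at MTHFD1.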
